A study of Mus musculus with 12 samples.

Results

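The apolipoprotein L genes *Apol6*, *Apol8*, *Apol9a*, *Apol9b*, *Apol10a* and *Apol10b* were followed in cultured mouse oligodendrocyte precursors (OPCs), which divide and can mature into oligodendrocytes, the cells that make myelin. These 6 genes were chosen from their measured reads in the treated and control libraries, out of 55536 annotated genes and 13 mouse genes with an *Apol* symbol. Because *Apol9a* and *Apol9b* are near copies, their reads are also given as a sum. Primary OPCs came from the pooled brains of P4-P6 pups, were isolated through a Sox10-GFP reporter or through CD140a microbeads, and were grown in proliferation medium with PDGFaa and bFGF. The 3 groups were Ctr-OPCs with no treatment named, Dexa-treated OPCs (48 h of dexamethasone, a synthetic glucocorticoid, at 1 µM) and OPCs given IFN-γ at 100 ng/ml for 48 h, each with 4 total RNA libraries from different litters. A label of all samples names the mouse model as EAE (experimental autoimmune encephalomyelitis), whereas the growth protocol describes pup cultures only.

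Apolipoprotein L proteins are mostly intracellular and interact with membranes, unlike the lipid carriers of blood and cerebrospinal fluid such as Apoe. In humans, APOL1 is the serum factor that lyses trypanosomes, and APOL3 acts on membranes of bacteria inside cells stimulated with IFN-γ. The mouse family has been expanded by duplication, and its *Apol9* pair is known as interferon-induced with activity against RNA viruses. IFN-γ acts through a receptor joined to the JAK1 and JAK2 kinases. DNA motifs tied to the interferon response include the GAS (gamma-activated site) and the interferon-stimulated response element (ISRE), which is bound by IRF factors such as IRF1.

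The tables held between 19209063 and 52074652 estimated reads in 11 libraries. The table of Dexa replicate 3 stopped after 33.7% of the transcripts, but listed every transcript of each *Apol* gene, so its reads and TPM (relative transcript abundance, corrected for length and depth) are given and its counts entered no fit over all genes. The 9 OPC markers, among them *Pdgfra*, *Cspg4* and *Sox10*, summed to 827 to 1536 TPM in Ctr-OPCs and 713 to 1443 TPM in IFN-γ-treated OPCs. The 9 microglial markers summed to 0.134 to 0.472 TPM in Ctr-OPCs and 0.320 to 1.01 TPM in IFN-γ-treated OPCs. Of these 9, 2 were tested and 0 called, with or without the replicate number as a block. Those not tested included *Aif1* (mean 0.019 TPM in Ctr-OPCs and 0.115 after IFN-γ), *C1qa* (0.013 and 0.072), *C1qb* (0.0035 and 0.060) and *Ptprc* (0.0096 and 0.013). The 4 myelinating markers summed to 0.162 to 0.388 TPM in Ctr-OPCs and 0.099 to 0.415 TPM in IFN-γ-treated OPCs. Of them 2 were tested and 0 called. The 6 endothelial ones summed to 0.576 to 0.732 TPM in Ctr-OPCs and 0.504 to 0.710 TPM in IFN-γ-treated OPCs. The 6 astrocyte markers summed to 18.1 to 47.5 TPM in Ctr-OPCs and 32.4 to 62.1 TPM in IFN-γ-treated OPCs, and the 4 neuronal markers to 3.12 to 4.91 and 3.88 to 6.38 TPM. After IFN-γ, 0 of the 9 OPC markers were called by DESeq2 (8 had fitted log2 differences below 0, *Pdgfra* -0.50 ± 0.45), but with the replicate number as a block, a fit that called 29.2% of all genes in either direction, 6 of the 9 were lower, *Pdgfra*, *Cspg4*, *Sox10*, *Lhfpl3*, *Vcan* and *Cacng4*. Of 5 astrocyte markers tested, *Gfap* was called higher (3.82 ± 0.59), as were 8.02% of all genes. With the block, 3 of the 5 were higher and 1 lower. Those higher were *Gfap*, *Aldh1l1* and *Sox9*, and *Aqp4* was lower. Without the block, *Aldh1l1* had 0.55 ± 0.54, *Sox9* 0.48 ± 0.24 and *Aqp4* -1.02 ± 0.51. Of 3 neuronal markers tested, *Syt1* was called higher (1.10 ± 0.20), and *Snap25* (-0.46 ± 0.32) was lower only with the block. The part of these cells in the *Apol* reads was not tested, and in bulk libraries fewer cells of a type and less RNA per cell cannot be told apart.

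Of the 13 *Apol* genes, 12 lay on chromosome 15 of GRCm38, over 712.3 kb between 77044729 and 77757003. *Apol6* stood apart from the others at chr15:77044729-77057106 on the + strand, 331.1 kb from the next *Apol* gene. *Apol9a* (chr15:77403789-77411135, - strand), *Apol10a* (chr15:77477047-77491069, + strand), *Apol10b* (chr15:77583819-77596125, - strand), *Apol9b* (chr15:77729039-77736382, + strand) and *Apol8* (chr15:77747798-77757003, - strand) followed in that order. The gene that carries the symbol *Apol7d* was annotated on chromosome 1 (71652837-71662843), on the opposite strand to *Fn1* (71585520-71653200), which it overlaps only at an end.

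Promoter sequences show how alike the copies are and where they hold interferon motifs. RefSeq promoters on GRCm38.p6 (250 bases before to 50 bases after the start) were found for 5 of the 6 genes and for 11 of the 13. None was found for *Apol6* or *Apol7d*, so the motif search leaves out *Apol6*, the member with the most IFN-γ reads. The ISRE was searched as GAAANNGAAA and the GAS as TTCNNNGAA, on both strands and with overlaps allowed, and all ISRE matches here read TTTCNNTTTC on the strand of the gene. The windows that follow run from 100 bases before the start to 20 after it, 5′ to 3′ on the strand of the gene, with ISRE matches in capitals. The first 4 are members that hold a match, and *Apol8* is the member whose window holds none. *Apol7e* and *Apol7b* are a pair of near copies that differ in the match. The *Apol8* window was placed at a start of 77757010. All *Apol8* reads were given to Apol8-202, a transcript that begins at 77755273, and that start was not searched.

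Apol9a (chr15:77411061-77411180, - strand): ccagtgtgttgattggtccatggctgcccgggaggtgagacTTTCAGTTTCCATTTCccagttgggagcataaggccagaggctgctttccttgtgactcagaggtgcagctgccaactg
Apol9b (chr15:77728972-77729091, + strand): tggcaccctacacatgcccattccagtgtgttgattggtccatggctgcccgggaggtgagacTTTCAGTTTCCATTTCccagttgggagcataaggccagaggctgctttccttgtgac
Apol10b (chr15:77596106-77596225, - strand): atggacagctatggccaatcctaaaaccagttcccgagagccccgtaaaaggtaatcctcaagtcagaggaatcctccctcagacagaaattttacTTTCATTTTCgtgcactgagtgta
Apol10a (chr15:77476947-77477066, + strand): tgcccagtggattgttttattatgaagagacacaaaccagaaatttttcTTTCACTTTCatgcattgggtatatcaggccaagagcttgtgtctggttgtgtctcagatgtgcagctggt
Apol8 (chr15:77756991-77757110, - strand): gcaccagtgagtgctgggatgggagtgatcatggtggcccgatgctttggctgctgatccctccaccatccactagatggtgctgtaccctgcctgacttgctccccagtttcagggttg
Apol7e (chr15:77698789-77698908, + strand): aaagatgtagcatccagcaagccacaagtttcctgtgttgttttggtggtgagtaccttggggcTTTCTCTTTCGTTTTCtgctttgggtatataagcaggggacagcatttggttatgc
Apol7b (chr15:77447441-77447560, - strand): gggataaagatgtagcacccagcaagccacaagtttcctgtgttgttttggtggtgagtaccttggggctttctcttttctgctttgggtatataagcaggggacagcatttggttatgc

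The ISRE letters were present in 8 of the 11 *Apol* promoters and in 4 of the 5 members with a promoter, whereas 1131 of all 32851 promoter windows held them (3.44%). *Apol9a* and *Apol9b* had 2 overlapping matches each, and only 0.225% of all windows held more than 1. The matches began 59 and 53 bases before the RefSeq start in *Apol9a* and 37 and 31 bases before it in *Apol9b*. These 2 promoters were identical over all 278 bases that could be aligned, so their matches are 1 stretch of sequence. Its different distances hold for the RefSeq starts used, 77411080 for *Apol9a* and 77729072 for *Apol9b*. The transcripts that took most reads, Apol9a-201 and Apol9b-204, begin elsewhere, at 77411135 and 77729039. Distances from these starts were not measured, so the difference depends on the starts chosen. *Apol10b* had 1 match that began 4 bases before the start and ran across it, and *Apol10a* had 1 match 51 bases before it. The GAS letters, found in 8.30% of all windows, occurred at position -241 of *Apol10a*, *Apol11a* and *Apol11b* and in none of the other 8 *Apol* promoters. The *Apol11a* and *Apol11b* promoters were 99.3% identical to each other and about as close to *Apol10a* (89.0% and 89.6%), so these are related sequences as well. A match is a run of letters and not a binding site that was measured.

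**Figure D1:**
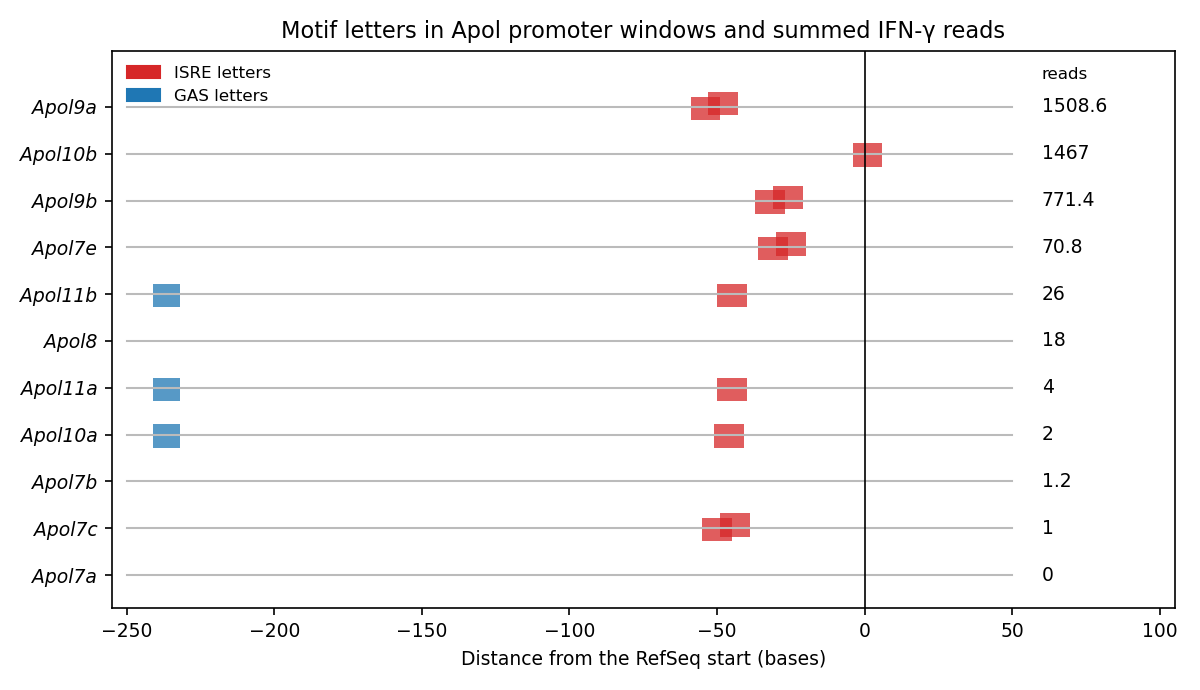
Position of ISRE letters (red, overlapping matches drawn offset) and GAS letters (blue) in 11 *Apol* promoter windows, against the distance from the RefSeq start in bases, with the reads summed over the 4 IFN-γ libraries at the right. *Apol9a* and *Apol10b* with 1508.6 and 1467 reads and *Apol7c* and *Apol10a* with 1 and 2 reads all hold ISRE letters, and *Apol8*, *Apol7a* and *Apol7b* hold none. *Apol6*, with 16111 reads, had no window and is not drawn.

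*Apol6* was the most abundant *Apol* transcript of IFN-γ-treated OPCs. Ctr-OPCs held 4, 4, 8 and 5 estimated reads of *Apol6* in replicates 1 to 4, Dexa-treated OPCs 6, 6, 2 and 0, and IFN-γ-treated OPCs 4705, 4519, 3616 and 3271. All 4 IFN-γ libraries lay far above the other 8. Nothing is read from this separation, since IFN-γ reads chose the members and its share over all genes was not counted. Per length, *Apol6* stood at 59.4 ± 5.16 TPM (SD, n = 4) after IFN-γ and at 0.0985 ± 0.0478 TPM in Ctr-OPCs, which placed it 951st among 22028 protein-coding genes after IFN-γ and 13417th in Ctr-OPCs. In reads normalized for depth, the mean went from 4.27 ± 1.47 to 4339 ± 226, a log2 difference of 10.03 ± 0.33 (SE). The ratio of pooled reads was 1052, with a 95% interval of 688 to 1700 that covers counting error only.

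*Apol10b* had almost no reads without IFN-γ. It was seen with 0, 0, 1 and 0 reads in Ctr-OPCs, 0, 3, 0 and 2 in Dexa-treated OPCs, and 450, 459, 307 and 251 in IFN-γ-treated OPCs. Its level after IFN-γ was 3.85 ± 0.848 TPM (n = 4). Since its Ctr level rests on 1 read, the ratio of 2011 has a 95% counting interval of 360 to 79490, and the fitted log2 difference of 10.64 ± 1.04 depends on that read. Without Ctr replicate 3, which holds it, the fitted value was 11.28.

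The *Apol9* pair followed the same pattern at a similar level. *Apol9a* was given 2, 4.5, 0 and 0 reads in Ctr-OPCs, 0 in all 4 Dexa libraries, and 511.6, 458.6, 297.1 and 241.3 in IFN-γ-treated OPCs. For *Apol9b* the values were 0, 2.5, 1 and 1 in Ctr-OPCs, 1, 0, 0 and 0 in Dexa-treated OPCs, and 268.4, 219.4, 156.9 and 126.7 in IFN-γ-treated OPCs. The fractions arise because the quantification divides reads that match both genes.

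Their sum does not depend on that division. It came to 2, 7, 1 and 1 reads in Ctr-OPCs, 1, 0, 0 and 0 in Dexa-treated OPCs and 780, 678, 454 and 368 in IFN-γ-treated OPCs. The normalized mean of the sum was 1.99 ± 1.64 in Ctr-OPCs and 604 ± 134 after IFN-γ, a log2 difference of 8.14 ± 0.50. Of the 11 Ctr reads, 7 were in replicate 2, and without that library the log2 difference was 9.02. The pooled ratio was 284 (95% counting interval 159 to 570). Taken singly, the log2 differences were 8.41 ± 0.64 for *Apol9a* and 7.71 ± 0.69 for *Apol9b*, or 9.43 and 8.47 without Ctr replicate 2.

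*Apol8* and *Apol10a* had at most 10 reads in any library. *Apol8* had 1, 0, 2 and 1 reads in Ctr-OPCs, 6, 8, 0 and 0 in Dexa-treated OPCs and 10, 3, 3 and 2 in IFN-γ-treated OPCs, so the groups overlapped. Its pooled reads after IFN-γ were 6.17 times those of Ctr-OPCs (95% counting interval 2.03 to 25.1), and without IFN-γ replicate 1 the other 3 IFN-γ libraries held 2 or 3 reads each. *Apol10a* had 5, 0, 0 and 0 reads in Ctr-OPCs, 0, 0, 1 and 0 in Dexa-treated OPCs and 1, 1, 0 and 0 in IFN-γ-treated OPCs. At 26522547 to 35260962 reads per IFN-γ library, a difference in *Apol10a* was not detectable.

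**Figure D2:**
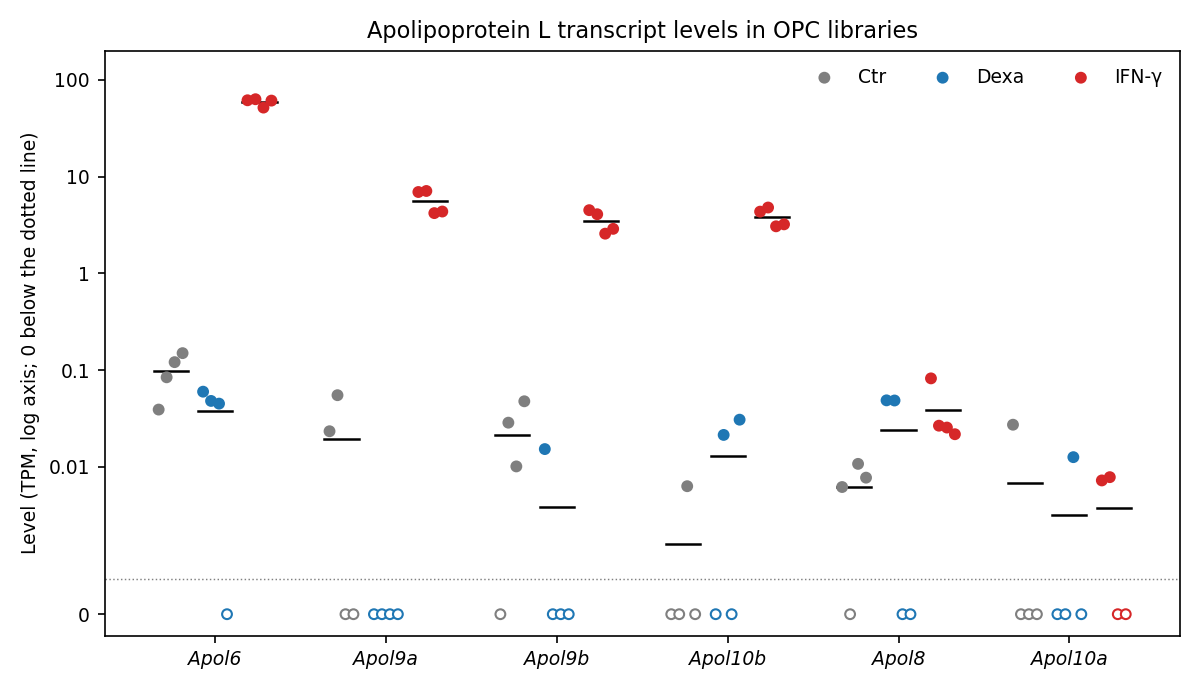
Levels of the 6 genes in TPM on a log axis, with 1 point per library (4 per group), open points below the dotted line for libraries at 0, and bars at the group means. The IFN-γ libraries of *Apol6* lie between 51.7 and 63.1 TPM and those of *Apol9a*, *Apol9b* and *Apol10b* between 2.57 and 7.11 TPM. *Apol8* and *Apol10a* stay below 0.1 TPM.

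Only 4 of the 6 genes, *Apol6*, *Apol9a*, *Apol9b* and *Apol10b*, reached 10 counts in at least 4 libraries, and each did so only through the IFN-γ group, where they had to be high. All 4 were called higher after IFN-γ, beside 8.02% of all 17919 genes tested (1437 genes, DESeq2), and nothing is read from that count since IFN-γ values chose the members. By size of the log2 difference they ranked 5th (*Apol10b*), 20th (*Apol6*), 65th (*Apol9a*) and 84th (*Apol9b*) of 17919. Such ranks rest on a few Ctr reads. With the replicate number as a block, 5238 genes were called in either direction after IFN-γ in place of 2302.

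The order of levels in IFN-γ-treated OPCs, in TPM, began with *Apol6*, which made up 79.5% to 85.4% of the TPM of the 6 genes. *Apol9a* came next with 5.65 ± 1.59 TPM, then *Apol10b* with 3.85 ± 0.848 and *Apol9b* with 3.51 ± 0.928 TPM. The ranges of these 3 overlapped. Within each of the 4 libraries *Apol9a* exceeded *Apol10b* and *Apol9b*, whereas *Apol10b* exceeded *Apol9b* in 3 of 4, so the order of the last pair did not hold in every library. The levels of *Apol9a* and *Apol9b* also rest on how reads that match both genes were divided. *Apol8* (0.0390 ± 0.0288 TPM) and *Apol10a* (0.00377 ± 0.00436 TPM) lay well under all of these.

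Levels among IFN-γ-treated OPCs were not equally tight. Normalized reads of *Apol6* were 4675, 4266, 4215 and 4199 in replicates 1 to 4. *Apol10b* had 447, 433, 358 and 322, *Apol9a* 508, 433, 346 and 310, and *Apol9b* 267, 207, 183 and 163. In all 4 genes replicates 1 and 2 were above replicates 3 and 4, with a ratio of means of 1.06 for *Apol6*, 1.30 for *Apol10b*, 1.44 for *Apol9a* and 1.37 for *Apol9b*. Among all tested genes 28.2% showed this order, with a median ratio of 1.00. The titles of replicates 3 and 4 begin with the same digits, whose meaning is not stated.

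**Figure D3:**
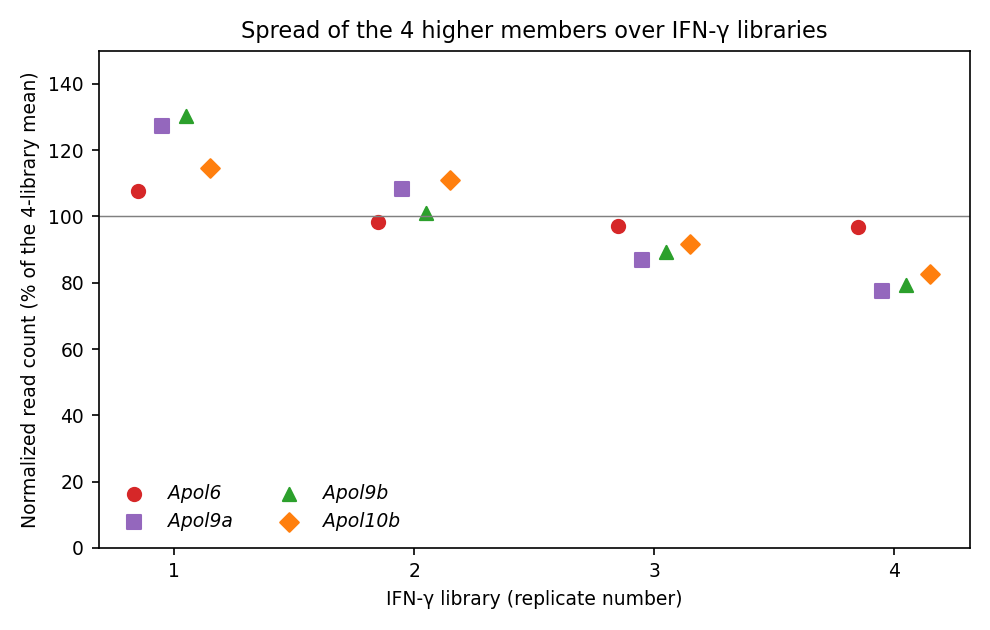
Normalized reads of *Apol6*, *Apol9a*, *Apol9b* and *Apol10b* in each of the 4 IFN-γ libraries, as a percentage of the mean of the gene over these libraries. *Apol6* stays closest to 100%, and the other 3 genes lie above 100% in replicates 1 and 2 and below it in replicates 3 and 4.

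How well reads can be given to one gene differed among the members. As words of 31 bases taken from the annotated transcripts, 64.9% of those of *Apol9b* also occurred in *Apol9a*, and 20.2% of those of *Apol9a* in *Apol9b*. The main transcripts of the pair, Apol9a-201 and Apol9b-204, were 98.5% identical over 1529 aligned bases. Only 2.2% of the *Apol6* words and 0.2% of the *Apol8* words occurred in any other gene, against 11.5% for *Apol10b* and 28.2% for *Apol10a*. The division of the pair was alike across libraries, with *Apol9a* given 65.6%, 67.6%, 65.4% and 65.6% of the summed reads in IFN-γ replicates 1 to 4. Since the same quantification was used on every library, a steady division does not show that it is right.

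Of the 7 annotated *Apol6* transcripts, the protein-coding transcript 206 took 73.7% to 80.3% of the *Apol6* reads in IFN-γ-treated OPCs and transcript 201 took 14.5% to 19.1%. Apol9a-201 took 59.2% to 77.1% of the *Apol9a* reads, and the retained-intron transcript Apol9a-203 took 18.1% to 25.3%. For *Apol9b*, Apol9b-204 took 76.7% to 95.3%. *Apol10b* has 1 annotated transcript, and all *Apol8* reads were given to Apol8-202. The shares of the lesser protein-coding forms were unsteady, as Apol9a-202 ranged from 0.0% to 18.0% and Apol9b-201 from 0.0% to 21.7%. *Mb*, the myoglobin gene that overlaps *Apol6* on the opposite strand, had 3 reads over all libraries.

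The other *Apol* genes were near or at 0 in OPCs. *Apol7e* had no read in Ctr- or Dexa-treated OPCs and 34.8, 12, 7 and 17 reads after IFN-γ, at least 32.5-fold higher than in Ctr-OPCs with 3 counts over the Ctr group as the floor. *Apol11b*, also without a read in the other groups, had 14, 7, 3 and 2 after IFN-γ, at least 11.9-fold higher. *Apol11a* had 4 reads in 1 IFN-γ library, *Apol7c* had 1 read and *Apol7b* 1.2 reads there, *Apol7b* had 1 read in a Dexa library, and *Apol7a* had 1 read in a Ctr library. *Apol7d* had 1 read in Ctr-OPCs and 4 in Dexa-treated OPCs, with none after IFN-γ.

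Promoter windows of 11 *Apol* genes were set beside summed IFN-γ reads. *Apol6*, with the most reads, had no window. Of the 8 genes with ISRE letters, *Apol9a* had 1508.6 reads, *Apol10b* 1467, *Apol9b* 771.4, *Apol7e* 70.8 and *Apol11b* 26. Several of these promoters are near copies of each other, and a link between letters and reads was not tested. The 3 without the letters, *Apol7a*, *Apol7b* and *Apol8*, had 0, 1.2 and 18 reads. The *Apol8* window did not cover the start of Apol8-202, which took all *Apol8* reads. The other 3 genes with the letters, *Apol7c*, *Apol10a* and *Apol11a*, had 1, 2 and 4 reads, so the letters also occurred where there were almost no reads. The *Apol7e* and *Apol7b* promoters were 99.3% identical over 295 aligned bases apart from a gap of 5 bases, and *Apol7b* held no match where *Apol7e* held 2. Summed IFN-γ reads were 70.8 for *Apol7e* and 1.2 for *Apol7b*, but 80.2% of the *Apol7e* words of 31 bases occur in *Apol7b*, so this division is uncertain.

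The members had few reads in Dexa-treated OPCs, as in Ctr-OPCs. The *Apol6* reads pooled over 3 Dexa libraries with full tables were 1.08 times those of 4 Ctr libraries (95% counting interval 0.484 to 2.30), and the fitted log2 difference was 0.10 ± 0.53 (adjusted p = 1, DESeq2), although the mean of its normalized reads was slightly lower with Dexa (3.84 ± 3.40 against 4.27 ± 1.47). The *Apol9* sum had 1 read in Dexa-treated and 11 in Ctr-OPCs, a ratio of 0.172 (0.00399 to 1.18). Its fitted log2 difference was -2.36 ± 1.28 (adjusted p = 1, range 0.428 to 1 over the alternatives), and it became -1.47 without Ctr replicate 2 and -3.26 without Dexa replicate 1. For *Apol10b*, with 5 reads in Dexa-treated and 1 in Ctr-OPCs, the ratio was 9.45 (1.06 to 447), and it was not called (adjusted p = 0.873, range 0.444 to 1). *Apol8* had 14 Dexa reads in 2 libraries against 4 Ctr reads, a ratio of 6.61 (2.08 to 27.6). DESeq2 and edgeR called 0 of the 4 members tested, with 1 of 4 (*Apol10b*) at an unadjusted p under 0.05 by either tool, beside 0.547% of all genes called by DESeq2 (98 genes, or 460 with the replicate block). Since these 4 genes entered the fit through their IFN-γ reads and had 0 to 8 reads per Ctr or Dexa library, a call was hardly possible, and the count does not speak for or against a response to Dexa. The glucocorticoid-responsive genes *Fkbp5*, *Per1* and *Zbtb16* were called higher in the same Dexa libraries, with log2 differences of 1.47, 1.70 and 1.35, and *Tsc22d3* (0.90) was not called, 3 of 4 in all.

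Genes around the cluster were examined for comparison. Within 500 kb of the outermost *Apol* genes, 26 of 35 other protein-coding genes were tested, and 5 of them were called after IFN-γ in either direction, beside 12.8% of all genes tested. The splicing regulator *Rbfox2*, which lies between *Apol6* and the rest of the cluster, differed by 0.32 ± 0.16 on the log2 scale (adjusted p = 0.215), and *Myh9*, the nonmuscle myosin heavy chain gene 3.6 kb beyond *Apol8*, by 0.18 ± 0.25 (adjusted p = 0.766). The called genes were the zinc finger gene *Zfp7* (0.75 ± 0.098) and *1110038F14Rik* (0.22 ± 0.066), both higher, and *Cyhr1* (-0.21 ± 0.066), *C030006K11Rik* (-0.34 ± 0.094) and the kinesin gene *Kifc2* (-0.87 ± 0.31), all lower. None of the 26 moved by more than 0.871 in either direction. In edgeR only *Zfp7* was called (8.44% of all genes), and with the replicate block 12 of the 26 were called (29.2% of all genes), *Rbfox2* and *Myh9* among them.

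**Figure D4:**
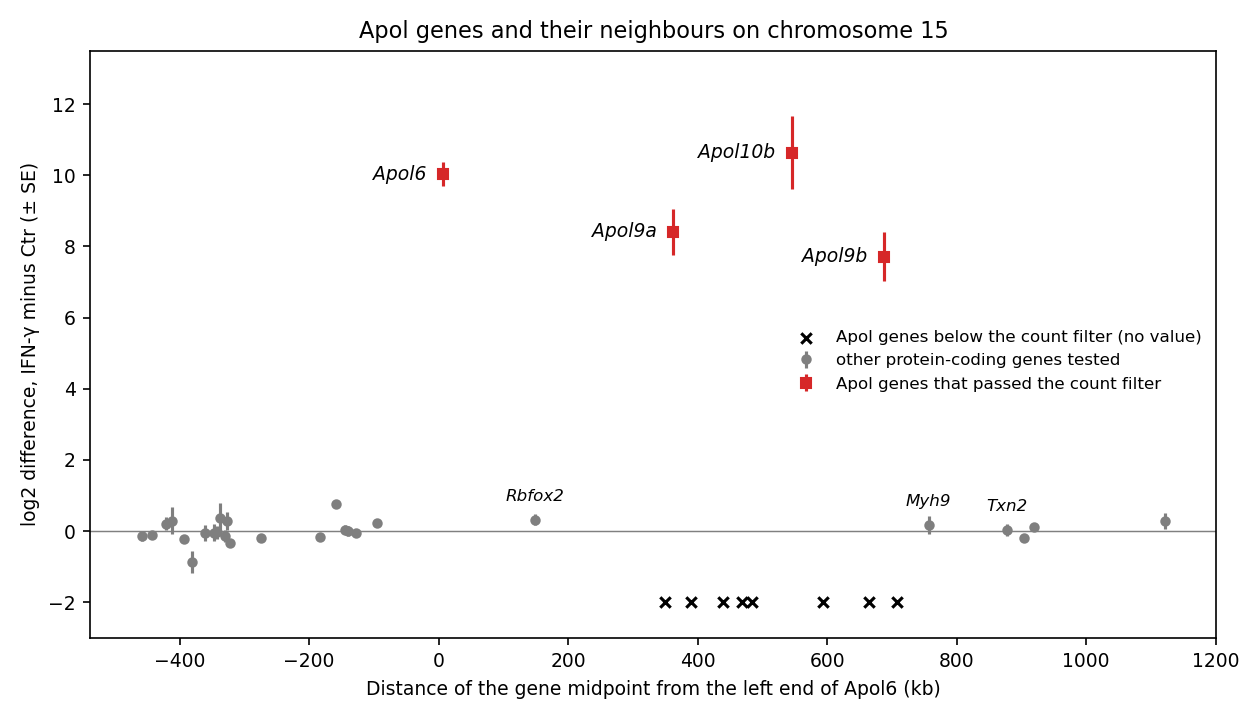
Fitted log2 difference between IFN-γ-treated and Ctr-OPCs (± SE) against the distance of each gene's midpoint from the left end of *Apol6* in kb. Red squares mark the 4 *Apol* genes that passed the count filter, at 7.71 to 10.64, grey points the 26 other genes tested, all within 0.871 of 0, and crosses at the bottom the position of the 8 other *Apol* genes, which have no fitted value.

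The genes that carry the IFN-γ signal were measured beside the members. Of 10 signalling genes, 8 were called higher and 1 lower after IFN-γ, beside 12.8% of all genes tested in either direction, and none after Dexa. The median log2 difference of the 10 was 2.34, against -0.016 over all genes. Among those called higher were the feedback inhibitor *Socs1* (6.08 ± 0.17) and the transcription factors *Irf1* (6.01 ± 0.10), *Irf9* (4.11 ± 0.15) and *Stat2* (3.29 ± 0.12). *Ifngr1*, the ligand-binding receptor chain, was called lower (-0.28 ± 0.093, adjusted p = 0.0225), a call that edgeR did not make (adjusted p = 0.0858).

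Apolipoproteins of other families were measured for comparison. Of 14 lipid carriers, 5 were tested and 1, *Clu* (clusterin), was called higher after IFN-γ (1.74 ± 0.33, adjusted p = 3.02e-06, DESeq2), beside 8.02% of all genes tested. The median log2 difference of the 5 was -0.093, against -0.016 over all genes. None was called after Dexa, beside 0.547% of all genes. *Apoe*, the main lipid carrier of the brain, stood at 30.0 ± 32.7 TPM in Ctr-OPCs and 33.5 ± 21.1 TPM after IFN-γ (log2 difference -0.093 ± 0.71, adjusted p = 0.969), with an SD in Ctr-OPCs as large as its mean. Per length, *Apol6* was higher than *Apoe* in mean level after IFN-γ and much lower in Ctr-OPCs.

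Finally, the summed normalized reads of the 6 members were compared with 13763 protein-coding genes over the 11 libraries with full tables, by Pearson correlation of log2(normalized reads + 1). The nearest genes were *Isg15*, a ubiquitin-like modifier (r = 0.9978), *Olfr56* (0.9977), *Rsad2*, the antiviral enzyme viperin (0.9976), the MHC class I gene *H2-Q4* (0.9973) and the guanylate-binding protein gene *Gbp10* (0.9973). *Apol6* made up most of the sum, with a normalized mean of 4339 after IFN-γ against 399 for *Apol9a*, 205 for *Apol9b* and 390 for *Apol10b*. The comparison is therefore mainly with *Apol6*. The points share the split between IFN-γ and other libraries, and 85 genes exceeded 0.99, so the order among them says little. After IFN-γ, *Isg15* stood at 38.7 ± 5.58 TPM and *Rsad2* at 5.21 ± 0.622 TPM. The annotated span of *Olfr56*, an olfactory receptor gene by name, overlaps several interferon-induced GTPase genes, *Ifi47* and *Tgtp1* among them, so its reads are uncertain.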

How the data were processed

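Total RNA-seq libraries of 12 OPC cultures (3 groups of 4) were used. Per the labels and the study's methods, rRNA-depleted strand-specific libraries were sequenced from both ends, and the authors ran Salmon (version 0.8.2 in the submitters' processing notes), which gives each transcript an estimated count and a TPM value. The authors' 3 deposited DESeq2 tables hold their own comparisons and were not used. Transcript identifiers matched GENCODE M21 (GRCm38), and 0 lacked a gene. The members and lists were chosen with earlier results of these data known.

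Estimated counts were summed per gene and rounded. The table of Dexa replicate 3 holds 47855 of 141862 transcripts, so fits used 11 libraries. The 17919 genes that reached 10 counts in 4 or more libraries were tested with DESeq2 1.42.0 (Wald test, group only, Benjamini-Hochberg adjustment, calls at an adjusted p under 0.05). Since IFN-γ values chose the members, their IFN-γ differences carry no p. Also run were edgeR 4.0.16 (quasi-likelihood test), limma 3.58.1 on log2(TPM + 0.1) and log2(TPM + 1), TMM size factors, no count filter, the replicate block, 12 libraries over genes every table lists whole, and each library left out. DESeq2 and edgeR were tested on simulated data, where DESeq2 made more false calls than its threshold allows and edgeR made fewer. The simulated libraries were drawn independently, without a replicate effect, so these rates need not hold for the real libraries.

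Named genes were the members, the other *Apol* genes, called neighbours, up to 5 called genes per list (1 is not reported here) and the 5 genes most like the members. Deviations from group means correlated at 0.404 to 0.723 for libraries with equal replicate numbers (10 pairs). For other libraries the correlations were -0.615 to 0.496 (30 pairs). The ranges overlapped only through Ctr replicate 3 with Dexa replicate 4 (0.496). The next highest was 0.368 (Ctr replicate 3 with IFN-γ replicate 4), below every pair with equal numbers. The main fit did not use the replicate number, and the replicate block did. No 2 libraries of a group agreed within sampling noise (chi-square per degree of freedom 23.6 to 229). Counting intervals are exact (Clopper-Pearson, 95%). They and the floor of 3 counts cover counting error only, as PCR copies could not be told from separate molecules.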

Additional observations from a re-analysis of the deposited data

Results flagged for a closer look

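Among the 20 member and group combinations with any spread, 6 had 1 library set apart from the other 3 by Dixon's criterion. All were the highest library and rest on 1 to 10 reads. In 5 of the 6 the other 3 libraries were at 0, which meets the criterion by construction, so the rate of about 1 in 20 that chance gives for continuous values does not apply to them. In *Apol8*, IFN-γ replicate 1 stood at 0.0822 TPM (10 reads). In *Apol10a*, Ctr replicate 1 stood at 0.0273 TPM (5 reads) and Dexa replicate 3 at 0.0126 TPM (1 read). *Apol10b* stood at 0.00631 TPM in Ctr replicate 3 (1 read). *Apol9b* and the *Apol9* sum, which share this read, stood at 0.0153 TPM in Dexa replicate 1 (1 read). The IFN-γ libraries of *Apol6*, *Apol9a*, *Apol9b*, *Apol10b* and the sum did not meet it.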

How the results depend on the processing

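*Apol6*, *Apol9a*, *Apol9b*, *Apol10b* and the *Apol9* sum were higher after IFN-γ under all 19 alternatives, a direction set by their choice from IFN-γ reads. None was called in Dexa-treated OPCs under any, the replicate block included, but so few Ctr and Dexa reads made a call hardly possible. On log2(TPM + 0.1) and log2(TPM + 1) the IFN-γ difference of the sum was 6.02 and 3.25, since a pseudocount near or above the Ctr level shrinks it, and with 1 library left out it ran from 7.80 to 9.02. The Dexa difference of *Apol6* changed sign on these scales (-0.54 and -0.084) and ran from -0.29 to 0.46 with 1 library left out (-0.29 without Dexa replicate 1, -0.14 without Ctr replicate 2, -0.057 without Dexa replicate 2). The Dexa difference of the sum was -0.40 and -0.050 on these scales and ran from -3.26 to -1.47 with 1 library left out. Calls over all genes moved more. After IFN-γ, 2302 became 1513 (edgeR), 5238 and 5606 (replicate block in DESeq2 and edgeR), 834 (12 libraries, where fewer genes could be tested), 1318 and 1435 (limma, the smaller pseudocount first), and 1714 to 2647 with 1 library left out. After Dexa, 98 became 22, 460 and 282, 23, 18 and 15 under the same settings and 60 to 112 with 1 library left out, lowest without Dexa replicate 2. Without the count filter 2 lipid carriers were called, *Clu* and *Apoc1* (2.60 ± 0.89, adjusted p = 0.0388). That setting also called 6 *Apol* genes higher in place of 4, beside 1494 genes in all, and the added ones were not members. Apart from the filter and the smaller gene set, the cause of these shifts was not tested. *Apol8* and *Apol10a* never passed the filter, and their few reads set the limit on any statement about them.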
